A study of Mus musculus with 6 samples.

Results

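The BTG and TOB genes encode a small family of antiproliferative proteins, and 5 of them, Btg1, Btg2, Btg3, Tob1 and Tob2, were followed here in muscle stem cells labelled as control or Med23 knockout. The members were chosen by gene name from 32973 genes in the deposited table, with their values in this comparison already known. Expression was given in FPKM, a fragment count divided by transcript length and by the size of the library. A gene was tested where its average over the 6 libraries reached 1 FPKM, as it did for 12336 genes and for all 5 members. A further mouse family member, Btg4, known for messenger RNA clearance in oocytes, was listed at 0 in all 6 libraries, as were the pseudogenes Btg1-ps1 and Btg1-ps2.

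The cells were primary muscle stem cells of mouse skeletal muscle, the Pax7-expressing cells that rebuild muscle fibres. They had been sorted by flow cytometry and kept in vitro for 3 days, on collagen, in growth medium containing bFGF (a fibroblast growth factor) and serum. Control cells had the genotype Med23flox/flox (3 libraries, Ctrl), and knockout cells Med23flox/flox::Pax7CreERT2 (3 libraries, Med23KO). Both groups thus carried loxP-flanked Med23. CreERT2 is a Cre recombinase that tamoxifen activates, driven here by Pax7, and only the knockout cells carried it. With no group that had Cre alone, what Cre does and what its action on Med23 does cannot be told apart. The labels give the treatment as none and do not say which exons of Med23 are flanked. A dose or timing of tamoxifen is not given in the sources used here. Nothing in the labels gives the age of the mice, or says whether the libraries of a group came from separate animals or cultures. A p-value thus covers just the variation among these libraries, and that variation may be technical. The number of calls across all genes changed when 1 library was left out. With all 6 libraries the test called 184 genes higher and 175 lower. Without Med23KO replicate 3 it called 749 higher and 395 lower. Without any 1 of the other 5 libraries it called 3 to 47 higher and 10 to 46 lower. A test on 5 libraries can also call fewer genes because it holds fewer values, and this was not tested apart.

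BTG and TOB proteins share an amino-terminal BTG domain. Through it they bind the deadenylase subunits CNOT7 and CNOT8 of the CCR4-NOT complex, which shortens the poly(A) tails of messenger RNAs and so prepares them for decay. Btg1 and Btg2 are close relatives that also bind the arginine methyltransferase PRMT1 and are known for holding resting lymphocytes quiescent. Tob1 and Tob2 have longer carboxy-terminal tails that bind the cytoplasmic poly(A)-binding protein. When overproduced, members of the family slow passage from G1 into S phase. Btg2 is also known as a gene that p53 induces and as an immediate-early gene that growth factors induce.

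Btg2 had the lowest level of the members in controls and the largest log2 fold change of the 5, so its promoter is shown with that of its closest relative, Btg1. Both windows run from 250 bases before to 50 bases after the RefSeq start site, on GRCm38.p6, the assembly also called mm10. The Btg2 window is chr1:134079106-134079405, minus strand, and the Btg1 window is chr10:96616751-96617050, plus strand. Capitals mark the half-site TGACG of the cyclic AMP response element (CRE), the CCAAT box and the FoxO motif GTAAACA, each on either strand.
Btg2: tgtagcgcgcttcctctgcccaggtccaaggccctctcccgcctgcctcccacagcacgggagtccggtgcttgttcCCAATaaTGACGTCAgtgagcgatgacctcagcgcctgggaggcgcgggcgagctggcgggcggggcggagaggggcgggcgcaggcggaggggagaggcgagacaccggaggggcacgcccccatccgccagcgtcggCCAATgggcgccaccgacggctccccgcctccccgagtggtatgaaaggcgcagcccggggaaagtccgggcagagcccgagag
Btg1: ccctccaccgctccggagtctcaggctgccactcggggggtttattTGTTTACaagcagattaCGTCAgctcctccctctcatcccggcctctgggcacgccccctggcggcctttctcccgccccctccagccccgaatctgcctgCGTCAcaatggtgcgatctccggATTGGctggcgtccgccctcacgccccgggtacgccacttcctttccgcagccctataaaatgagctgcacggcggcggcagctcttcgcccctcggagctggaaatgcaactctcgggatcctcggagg

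The Btg2 window held a full CRE, TGACGTCA, beginning 166 bases before the start site. This motif reads the same on both strands, so both half-sites found in the window, at 166 and 163 bases before the start, lie within it. A full CRE was present in 1.79% of the 32851 promoter windows of this length and in no window of the other members. Btg1 held 2 separate half-sites, at 187 and 103 bases before the start, and Tob1 held 1, at 96 bases, while none lay in the windows of Btg3 and Tob2. The half-site was present in 20.8% of all windows. The FoxO motif was found in Btg1 alone among the members, 204 bases before the start, and in 3.65% of all windows. The Btg2 window also held the EGR motif GCGNGGGCG, 131 bases before the start, which was in 5.55% of all windows. GC boxes, GGGCGG, lay in at least 1 window of each member, and in 35.7% of all windows. The CArG box CCWWWWWWGG, the p53 decamer RRRCWWGYYY and the AP-1 motif TGANTCA had no match in the members' windows. They were in 1.63%, 8.36% and 7.81% of all windows. In these strings R is A or G, Y is C or T, W is A or T and N is any base. Only exact matches inside the windows were counted, so a p53 site that departs from the string, or lies elsewhere, would be missed. A match is a string of letters, and binding was not measured.

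Btg2 (ENSMUSG00000020423.6, mm10 chromosome 1, positions 134075170 to 134079120, minus strand, 2 exons) was the member with the lowest expression in control cells. It had 12.6, 12.4 and 10.8 FPKM in Ctrl replicates 1, 2 and 3, beside 22.4, 22.3 and 19.4 in the Med23KO replicates of those numbers. Every knockout library lay above every control library, and within each group the values were close together. Control libraries averaged 12.0 ± 1.01 FPKM and knockout libraries 21.4 ± 1.73 FPKM (SD, n = 3 each), a ratio of 1.79. The log2 fold change was 0.79 (SE 0.111). Fold changes in this text are differences of log2(FPKM + 1), and for genes of low level they come out too small. It was the 338th highest of the 12336 fold changes. In bulk RNA, fewer cells of a type and less RNA per cell cannot be told apart.

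Btg1 (ENSMUSG00000036478.8, mm10 chromosome 10, positions 96617006 to 96622809, plus strand, 2 exons), the nearest relative of Btg2, was the most abundant member. It had 59.2, 70.2 and 74.0 FPKM in the controls and 68.7, 77.4 and 79.7 FPKM in the knockouts, replicates 1, 2 and 3 in that order. The groups overlapped, since Med23KO replicate 1 lay below Ctrl replicates 2 and 3. The means were 67.8 ± 7.72 and 75.3 ± 5.82 FPKM (SD, n = 3 each), with a log2 fold change of 0.15 (SE 0.115). The shift of Btg1 was about the size of the spread between libraries.

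Btg3 (ENSMUSG00000022863.15, mm10 chromosome 16, positions 78332637 to 78377192, minus strand, 5 exons) encodes a member known to bind the cell-cycle transcription factor E2F1. Its controls were nearly identical, at 23.0, 23.2 and 23.3 FPKM. Its knockouts were spread around them, at 18.9, 21.7 and 27.3 FPKM in replicates 1, 2 and 3. Only the last of these lay above the controls. The means were 23.2 ± 0.115 and 22.7 ± 4.30 FPKM (SD, n = 3 each), and the log2 fold change was -0.05 (SE 0.138). The gene overlaps Cxadr, on the opposite strand, and the unnamed model Gm49590. The libraries were strand-specific, but whether the counting used strand is not given in the sources used here, so the value of Btg3 is uncertain to that extent.

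Tob1 (ENSMUSG00000037573.5, mm10 chromosome 11, positions 94211454 to 94215495, plus strand, 2 exons), known as an inhibitor of bone morphogenetic protein signalling through SMAD proteins, was the second most abundant member. It had 45.0, 48.9 and 47.7 FPKM in the controls and 42.3, 46.4 and 42.5 FPKM in the knockouts. Med23KO replicate 2 lay within the control range, and the other two knockout libraries lay below it. The means were 47.2 ± 1.99 and 43.7 ± 2.31 FPKM (SD, n = 3 each), a log2 fold change of -0.11 (SE 0.0894).

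Tob2 (ENSMUSG00000048546.8, mm10 chromosome 15, positions 81848272 to 81858796, minus strand, 2 exons) is the closest relative of Tob1. It had 22.3, 19.6 and 16.6 FPKM in the controls and 22.9, 22.7 and 16.4 FPKM in the knockouts. Both groups covered nearly the same range, and the lowest value of each was that of replicate 3. The means were 19.5 ± 2.88 and 20.6 ± 3.67 FPKM (SD, n = 3 each), with a log2 fold change of 0.07 (SE 0.164). The model Gm49476 lies antisense to Tob2, so its value carries the same uncertainty about strand as that of Btg3.

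**Figure D1:**
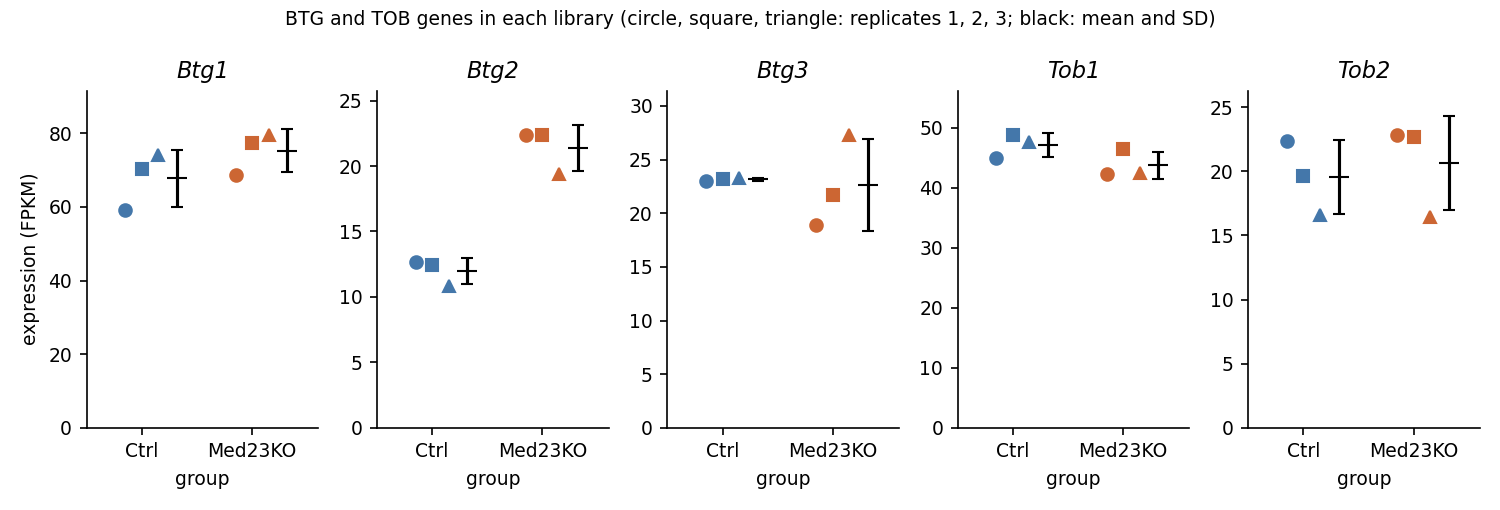
Expression (FPKM, linear axis from 0 in each panel) of the 5 genes in the 3 Ctrl and 3 Med23KO libraries; symbols are replicates and black marks are the mean and SD. Btg2 lies between 10.8 and 12.6 FPKM in Ctrl and between 19.4 and 22.4 FPKM in Med23KO, while the groups of the other 4 genes overlap.

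The comparison asks how cultured muscle stem cells labelled Med23KO differ from controls. The values above are the ones by which Btg2 came to notice and the family was chosen, so they are a description and no test is read from them. Past a limma adjusted p under 0.05, which 2.91% of all tested genes reached and 1.49% reached in the higher direction, was 1 of the 5 members, Btg2. The count was 0 of 5 when any 1 library among the 3 Ctrl replicates and Med23KO replicates 1 and 2 was left out, and 1 of 5 without Med23KO replicate 3. The log2 fold change of Btg2 stayed between 0.72 and 0.85 over these 6 fits. Knockout libraries all above the control libraries were found in 1 of the 5 members and in 10% of all tested genes, and the reverse in 0 of 5 and in 14.7%. In either direction, groups that did not overlap were found in 1 of 5 members and 24.7% of tested genes. The median log2 fold change of the 5 was 0.07, beside -0.03 over all genes. In the plot of all tested genes, 4 of the 5 members lie close to the line of no difference.

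**Figure D2:**
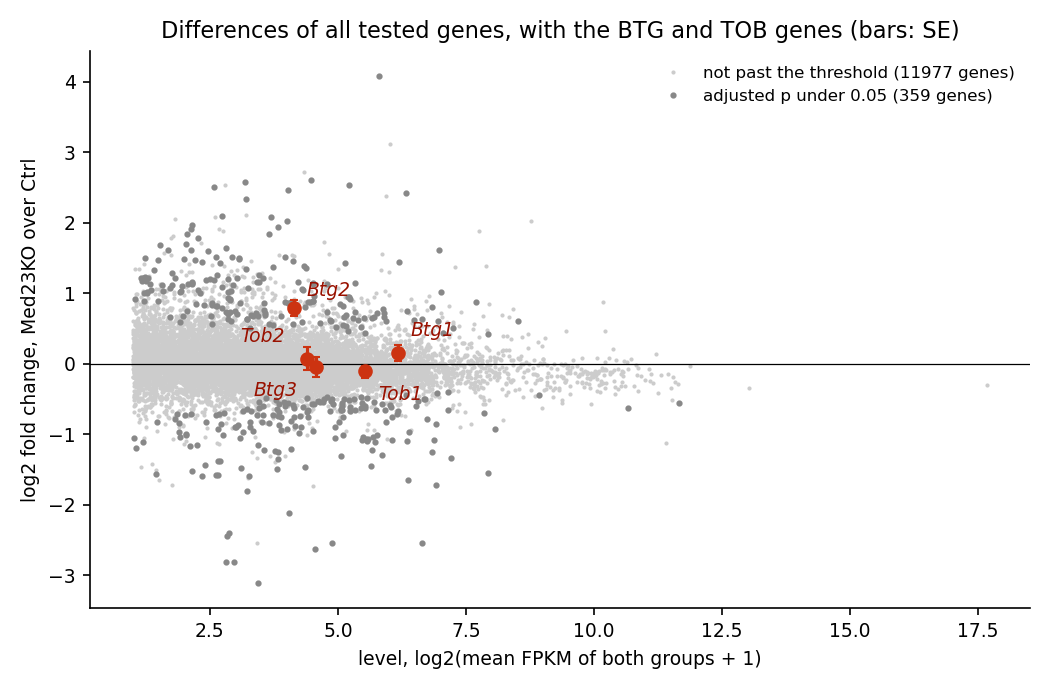
Log2 fold change, Med23KO over Ctrl, against level, log2(mean FPKM + 1), of 12336 tested genes; dark grey points have an adjusted p under 0.05, and red points with SE bars are the 5 members. Btg2 lies at 0.79 and the other 4 between -0.11 and 0.15.

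FPKM are scaled by length, so levels can be set side by side between genes. In controls the order was Btg1, Tob1, Btg3, Tob2 and Btg2, and no library of a gene reached the range of the next gene in that order. In knockouts Btg1 and Tob1 again led, each apart from its neighbour. Btg3, Btg2 and Tob2 followed with overlapping ranges, so their order in knockouts is not distinguished beyond the spread. Among all tested genes, the mean level of Btg2 was at the 52.9th percentile in controls and the 71.6th in knockouts. Btg1 was at the 91.7th and 92.9th and Tob1 at the 87.6th and 87.0th percentile. Tob2 was at the 67.8th and 70.6th percentile, and Btg3 was at the 73.1st in both groups.

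The 5 members summed to 162, 174 and 172 FPKM in Ctrl replicates 1, 2 and 3 and to 175, 191 and 185 FPKM in Med23KO libraries 1, 2 and 3. These sums averaged 169.6 ± 6.54 FPKM in Ctrl and 184 ± 7.88 FPKM in Med23KO (SD, n = 3 each). The lowest knockout sum, 175.1 FPKM, lay just above the highest control sum, 174.4 FPKM. Of single tested genes, 10% had every knockout library above every control. The sum includes Btg2, by whose values the family was chosen, so its difference is a description only. Btg2 made up 7.80%, 7.14% and 6.27% of the sum in the controls and 12.8%, 11.7% and 10.5% in the knockouts. Its share was 7.07% ± 0.767 in controls and 11.7% ± 1.17 in knockouts (SD, n = 3 each). The share of Tob1 was 27.8% ± 0.199 in controls and 23.8% ± 0.756 in knockouts, and these did not overlap either. Shares within a sum are tied to each other, since a larger share of 1 gene lowers the others. Btg1 held 39.9% ± 3.25 and 40.9% ± 1.91, Btg3 13.7% ± 0.478 and 12.3% ± 2.13, and Tob2 11.6% ± 2.09 and 11.3% ± 2.17 (SD, n = 3 each), and each of these 3 shares overlapped between the groups.

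**Figure D3:**
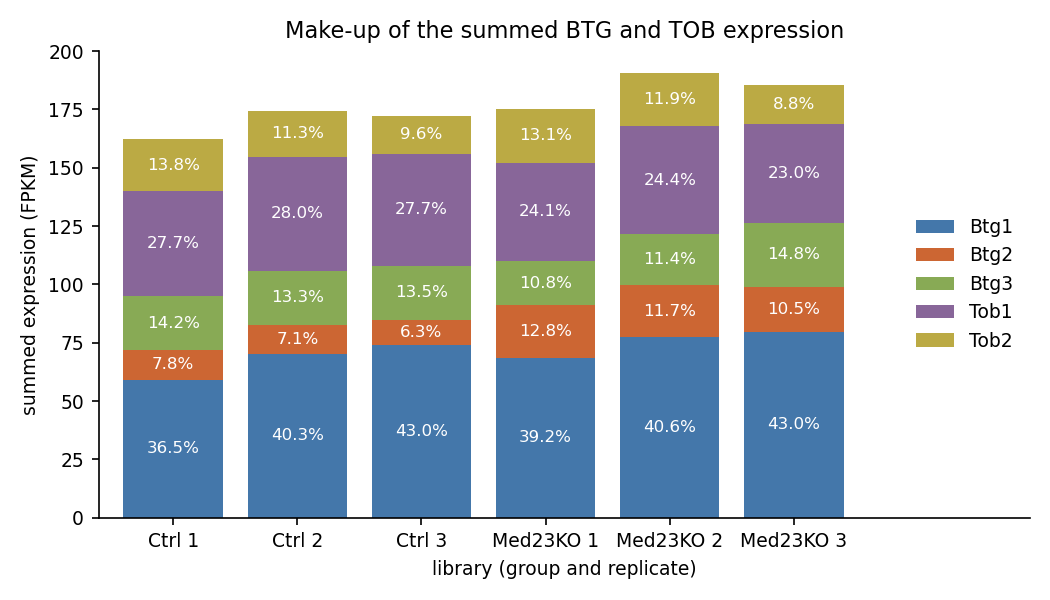
Summed expression (FPKM) of the 5 genes in each library, stacked by gene, with each gene's percentage of the sum. The Btg2 segment is 6.27% to 7.80% in Ctrl and 10.5% to 12.8% in Med23KO, and Btg1 is the widest segment in each library.

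For each member, the 3 named genes with the most similar profile were sought among 8802 genes whose average reached 5 FPKM. Likeness was the root-mean-square difference (log2) between profiles over the 6 libraries, each centred on the gene's own mean. For Btg2 these were the selenoprotein gene Sepw1 (0.0472), the protocadherin gene Pcdhb16 (0.0493) and Gm37311 (0.0613). Sepw1 averaged 42.7 ± 3.93 FPKM in Ctrl and 73.6 ± 7.60 FPKM in Med23KO (SD, n = 3 each). For Tob1 the nearest gene was Cnot1 (0.0152), which encodes the scaffold subunit of CCR4-NOT, at 43.6 ± 1.40 and 40.4 ± 1.80 FPKM. Ftsj1 (0.0180) and Zfp180 (0.0223) came next. For Tob2 the nearest were Tab1 (0.00644), Srxn1 (0.0145) and Wdr13 (0.0277), and Tab1 followed it most closely of all, at 7.23 ± 1.20 and 7.67 ± 1.43 FPKM. The nearest to Btg1 were Arih1 (0.0267), Cox16 (0.0274) and Ppm1b (0.0288), and to Btg3 Cenpj (0.0361), Phkb (0.0370) and Zfp935 (0.0406). A member that hardly moved is matched by genes that hardly moved, and all profiles share the same 6 libraries.

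The deadenylase machinery that the family binds gave no call in the main fit. Of 12 CCR4-NOT genes tested, 0 were higher and 0 lower at a limma adjusted p under 0.05, with a median log2 fold change of -0.09. At an unadjusted p under 0.05 there were 0 higher and 1 lower, and 0 and 0 in the authors' deposited table. In 2 of the 15 alternative fits tried, 1 gene of the complex was lower. Of the 12, 3 (Cnot9, Cnot10 and Cnot11) had every knockout library below every control, where 14.7% of all tested genes did. For the unadjusted counts of lists in this text, the share over all genes was not counted. They are thus not read as more or fewer than among all genes. In all, the authors' deposited table called 1130 genes higher and 924 lower. Cnot7, which encodes the deadenylase bound by the BTG domain, had 25.6, 37.2 and 36.9 FPKM in the Ctrl libraries and 26.9, 32.9 and 35.8 in the Med23KO libraries. Its relative Cnot8 had 25.9, 26.0 and 23.3 FPKM in Ctrl and 29.4, 26.7 and 25.5 in Med23KO. Both overlapped between groups, with log2 fold changes of -0.05 (SE 0.174) and 0.11 (SE 0.101). The lowest adjusted p of the complex, 0.159, belonged to Cnot9, at 42.7 ± 4.02 and 34.6 ± 0.274 FPKM (SD, n = 3 each), and all 3 of its knockout values lay below the controls. Prmt1, the methyltransferase partner of Btg1 and Btg2, had 188 ± 9.40 and 175 ± 14.1 FPKM (adjusted p = 0.614), and 0 of 5 tested genes of this and the other partners passed (median 0.0056), also at an unadjusted p under 0.05 and in the authors' deposited table.

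Among 19 other deadenylation and poly(A)-binding factors, 1 rose, where 1.49% of all tested genes did, and 0 fell, with a median of -0.0048. Without adjustment, at a limma p under 0.05, these were 2 and 2, and 2 and 1 in the authors' deposited table. The riser was Cpeb4, which encodes a protein that binds regulatory elements in messenger RNAs, from 6.37 ± 0.571 to 10.4 ± 0.824 FPKM (SD, n = 3 each), a log2 fold change of 0.63 with an SE of 0.115 and a limma adjusted p = 0.0358. The paralogs Zfp36l1 and Zfp36l2, whose products recruit CCR4-NOT to AU-rich messages, had log2 fold changes of opposite sign. Zfp36l1 had 11.2 ± 2.82 and 22.3 ± 6.85 FPKM (adjusted p = 0.116) and Zfp36l2 had 194.5 ± 40.8 and 125 ± 40.4 FPKM (adjusted p = 0.226), so neither passed. The call of Cpeb4 was lost in 5 of the 6 fits that leave out 1 library, all but that without Med23KO replicate 3, with limma adjusted p-values up to 0.187. That exception gave 2 rises.

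Lists of the regulators known for Btg2 and Btg1 were counted next. Of 22 tested genes of p53 and its targets, a list without Btg2, 0 passed in either direction, and the median was -0.12. At an unadjusted p under 0.05 there were 0 higher and 2 lower, and 0 and 3 in the authors' deposited table. Over the 15 alternative fits tried, up to 3 genes of this list were lower and up to 1 higher. Trp53 itself had 103 ± 11.1 and 80.2 ± 11.0 FPKM (adjusted p = 0.196), and its target Cdkn1a had 170 ± 37.7 and 197 ± 32.9 FPKM (SD, n = 3 each; adjusted p = 0.584). Of 29 tested immediate-early genes other than Btg2, 6 fell and 0 rose, with a median of -0.11, beside 1.42% of all genes that fell. Without adjustment, at a limma p under 0.05, these were 13 lower and 2 higher, and 11 and 2 in the authors' deposited table. The falls were in Dusp5, Egr1, Egr3, Junb, Myc and Klf2, the last named after its values were seen. Egr1, a transcription factor gene, had 53.2, 38.8 and 25.8 FPKM in Ctrl and 6.69, 5.52 and 3.93 in Med23KO (limma adjusted p = 0.0101). Dusp5, which encodes an ERK phosphatase, had 21.2, 21.7 and 16.2 FPKM against 6.35, 5.86 and 6.77 (limma adjusted p = 0.00676). Both thus lay on the other side of their controls than Btg2. The number of falls was 3 without Ctrl replicate 1, 1 without Ctrl replicate 2, 3 without Med23KO replicate 1 and 0 without Med23KO replicate 2. Without Med23KO replicate 3 it was 9, and 2 genes of the list were higher.

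Of 15 tested FoxO factors and FoxO targets, 2 rose, where 1.49% of all tested genes did, and 0 fell. The median was 0.18, beside -0.03 over all genes. At an unadjusted p under 0.05 there were 5 higher and 0 lower, and 6 and 0 in the authors' deposited table. Ccng2, the gene of cyclin G2, an unconventional cyclin, had 22.9, 21.4 and 22.6 FPKM in Ctrl and 44.6, 42.8 and 36.4 in Med23KO. Its log2 fold change was 0.85 (SE 0.106) with a limma adjusted p = 0.0151. Bnip3, a mitophagy gene, rose from 10.5 ± 0.862 to 20.2 ± 4.13 FPKM (SD, n = 3 each), with a log2 fold change of 0.86 (SE 0.161) and a limma adjusted p = 0.0378. Both calls were lost on leaving out Ctrl replicate 2, Ctrl replicate 3, Med23KO replicate 1 or Med23KO replicate 2, and that of Bnip3 also on leaving out Ctrl replicate 1, with adjusted p-values up to 0.114 for Ccng2 and 0.185 for Bnip3. The list had 5 rises without Med23KO replicate 3.

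Cell-cycle genes that act where the family does, at the passage out of G1, were mostly uncalled. Of 14 cyclin D and E, kinase and RB-E2F genes, 0 passed, with a median of -0.13. Without adjustment, at a limma p under 0.05, there were 1 higher and 3 lower, and the authors' deposited table had the same counts, 1 and 3. Over the 15 alternative fits tried, up to 4 genes of this list were lower and up to 1 higher. Ccnd1, whose product drives G1 progression, had 196 ± 41.8 and 131 ± 18.1 FPKM (adjusted p = 0.124), and Ccnd3 had 248 ± 73.4 and 435 ± 157 FPKM (SD, n = 3 each; adjusted p = 0.242). Of 7 CDK inhibitor genes, 1 rose, where 1.49% of all tested genes did, and 0 fell. The median was 0.27, beside -0.03 over all genes. At an unadjusted p under 0.05 there were 2 higher and 0 lower, and 2 and 0 in the authors' deposited table. The gene that rose was Cdkn1c, at 1.76 ± 0.703 FPKM in Ctrl and 6.38 ± 1.11 FPKM in Med23KO (SD, n = 3 each), with a log2 fold change of 1.44 (SE 0.216) and a limma adjusted p = 0.0222. This call was lost in the same 4 fits as that of Ccng2, with adjusted p up to 0.138, and the list had 2 rises without Med23KO replicate 3. Of 20 proliferation markers, 0 passed, with a median of -0.16. Without adjustment, at a limma p under 0.05, there were 0 higher and 5 lower, and 0 and 4 in the authors' deposited table. The replicate block gave 7 lower, library weights 4, and the fit without Med23KO replicate 3 gave 1. The log2 fold change was above 0 in 4 of the 20, and in 5566 of all 12336 tested genes. In 7 of the 20 every knockout library lay below every control, where 14.7% of all genes did. The smallest adjusted p-values by limma were those of Mcm6, Mcm7, Mcm5 and Mcm3, genes of the replicative helicase, at 0.0658, 0.0689, 0.0740 and 0.107. Mcm6 had 76.5, 81.2 and 84.6 FPKM in Ctrl and 59.7, 59.5 and 65.2 in Med23KO, a log2 fold change of -0.39 (SE 0.0892). Mki67 had 86.3 ± 8.91 and 86.1 ± 2.45 FPKM (SD, n = 3 each), with overlapping groups.

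**Figure D4:**
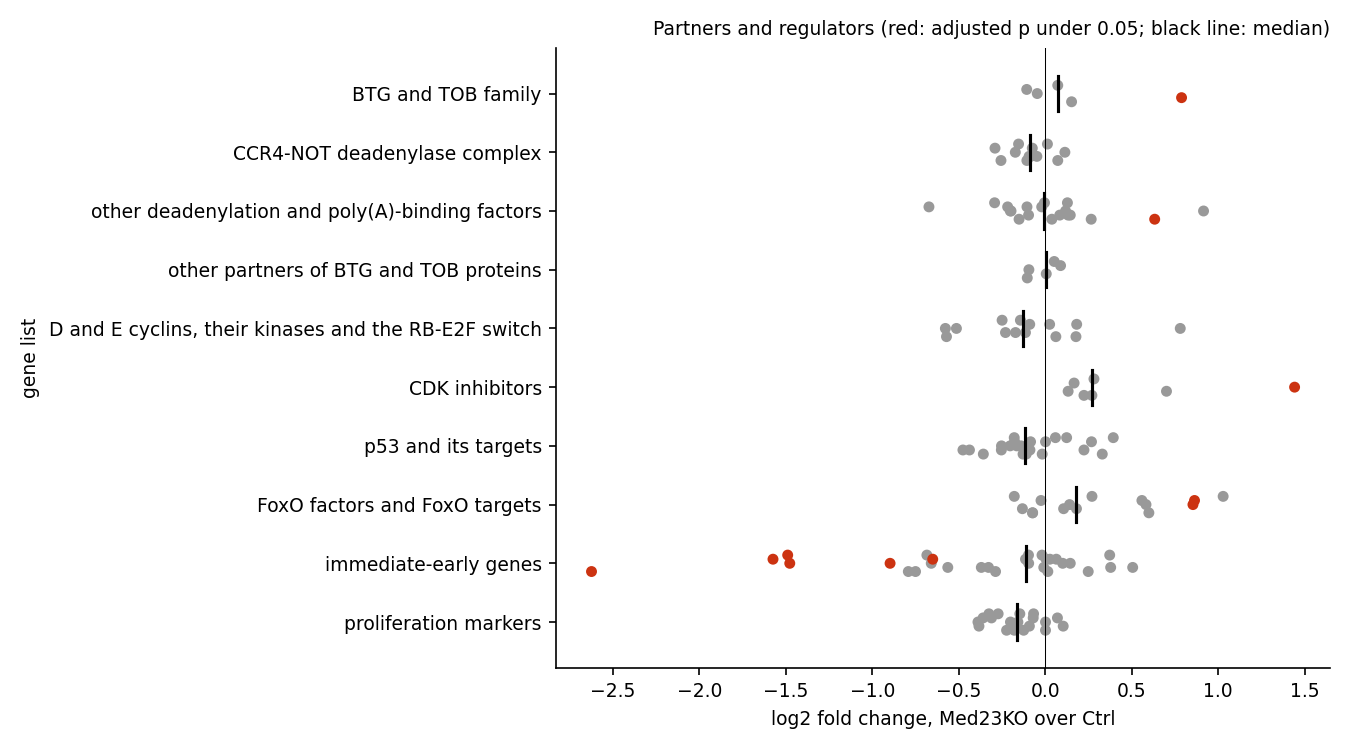
Log2 fold change, Med23KO over Ctrl, of each tested gene (points) in the family and in 9 lists of partners, regulators and cell-cycle genes; red points have an adjusted p under 0.05 and black lines are medians. The CCR4-NOT genes lie between -0.29 and 0.11, and Btg2 is the red point of the family at 0.79.

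The targeted gene, Med23, was lower in the knockout libraries, at 5.06 ± 0.818 FPKM beside 10.8 ± 0.783 FPKM (SD, n = 3 each; 47.1% of control). Its limma adjusted p was 0.0197 with all 6 libraries and above 0.05, up to 0.108, in 5 of the 6 fits that leave out 1 library, the exception being that without Med23KO replicate 3. Over all genes, 51.3% of the calls were rises, and with the libraries scaled to equal medians 63.9% were. The label of muscle stem cells was checked on 10 markers, all in the table. Of these, Pax7 had 32.4 to 60.3 FPKM and Myod1 551 to 1170 FPKM over the 6 libraries. Another, Calcr, had only 0 to 0.209 FPKM and was not tested. Of the 9 tested, 1 fell, Met (with all 6 libraries or without Med23KO replicate 3, not without any other), and 0 rose. Unadjusted counts were 2 lower and 1 higher, beside 2 and 2 in the authors' deposited table. Of 10 tested markers of differentiating muscle cells, 4 rose, 0 fell and 6 did not pass. The rises were in Tnnc1, Mef2c, Mymx and Actc1. Mymx had 0.363 ± 0.137 FPKM in Ctrl and 2.15 ± 0.897 FPKM in Med23KO (SD, n = 3 each). It thus reached the average of 1 FPKM only through the knockout libraries. Among all tested genes, 1.49% rose and 1.42% fell. In 8 of the 10 markers all knockout values lay above the controls, where 10% of all tested genes did. Tnnt2, named after its values were seen, had 37.9, 50.9 and 61.3 FPKM in Ctrl and 28.9, 27.3 and 55.5 in Med23KO, a log2 fold change of -0.47 with overlapping groups. Unadjusted counts were 8 higher and 0 lower, beside 8 and 1 in the authors' deposited table. The sum of the list was 144 to 183 FPKM in controls and 297 to 332 FPKM in knockouts. The number of rises in this list was 0 without Ctrl replicate 2 or without Med23KO replicate 2, and 2 without Ctrl replicate 3 or without Med23KO replicate 1. The fibro-adipogenic and fibroblast markers summed to 187 to 262 and 254 to 412 FPKM, with 0 of 10 past the test. At an unadjusted p under 0.05, 4 were higher, and 6 in the authors' deposited table. The median log2 fold change of the 10 was 0.52, with 9 above 0, where 5566 of all 12336 tested genes were. Of the 10, 3 had all knockout values above the controls, as 10% of all tested genes did. Col3a1 made up most of the sum, at 161 ± 21.9 and 241.8 ± 52.55 FPKM (SD, n = 3 each). Smooth muscle and pericyte markers summed to 152 to 190 and 263 to 310 FPKM, of which 1 of 4 tested, Acta2, rose (not without Ctrl replicate 2, Med23KO replicate 1 or Med23KO replicate 2), while Myh11 stayed at or under 0.370 FPKM. Most of that sum was Acta2, at 145 ± 13.4 and 267 ± 21.5 FPKM (SD, n = 3 each). The other 3 tested, Cspg4, Notch3 and Pdgfrb, had log2 fold changes of -0.58, -0.56 and -0.04 and did not pass, and the median of the 4 was -0.30. Unadjusted counts were 1 higher and 1 lower, beside 1 and 2 in the authors' deposited table. Schwann and glial markers summed to 19.5 to 53.9 and 28.9 to 146 FPKM, with 0 of 2 tested past the test, also unadjusted, and 1 higher in the authors' deposited table. Endothelial markers summed to 5.71 to 11.5 and 6.50 to 9.23 FPKM, with 0 of 4 past the test, also unadjusted, and 1 higher in the authors' deposited table. Immune markers summed to 4.06 to 5.72 and 3.31 to 5.27 FPKM, with 0 of 2 past the test, also unadjusted and in the authors' deposited table, and Ptprc at or under 0.0896 FPKM. The part of these cell types in the difference of Btg2 was not tested.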

How the data were processed

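Poly(A) RNA was measured in strand-specific libraries, per the labels' protocols, from 3 Ctrl and 3 Med23KO samples grouped by their titles. The submitters' processing notes list cutadapt, FastQC, STAR and Cuffdiff, and the build mm10. Their versions, the annotation and the strand setting were not given in the sources used here. The authors deposited FPKM for 32973 genes, and p-values and q-values from Cuffdiff, per the file headers, whose calls serve here as an alternative count only. The depth per library is unknown. Among low genes, at most 60% shared 1 ratio between any pair of libraries (tolerance 0.03, log2), so fragment counts could not be recovered. FPKM summed to 697886 to 746973 in controls and 599738 to 675095 in knockouts. A single gene, Rmrp, gave 225416 to 239590 of this in controls and 173041 to 205244 in knockouts. Without Rmrp the sums were 468565 to 507383 and 426697 to 476046, and the groups overlapped. Of 12368 Ensembl-only rows, 12316 matched a symbol, and 27 symbols turned into dates stayed unnamed.

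Values were taken as log2(FPKM + 1) for genes whose average reached 1 FPKM. Genotype was the single factor in the fit, made by limma 3.58.1 (R 4.3.3) with a variance trend over the mean. The test was two-sided, with Benjamini-Hochberg adjustment over 12336 genes and a threshold of 0.05. It was tested on simulated data, drawn independently for each gene and library. Such data hold no effect shared within a library or replicate number, so they cannot show how the test behaves where there is one. The members and lists were chosen with earlier results of these data known. Genes named from a list were those with the smallest adjusted p, up to 4, beside some named whatever their values. Of the listed symbols, 6 were found under an older name. Coordinates came from GENCODE vM21 on mm10, and promoter windows, found for all 5 members, from RefSeq on GRCm38.p6.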

Additional observations from a re-analysis of the deposited data

How the results depend on the processing

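Leaving out 1 of 3 libraries cannot move a group mean by 1 SD of that group, so such fits could not have shown a larger move. The log2 fold changes of the 5 members moved by less than 1 SD between replicates under every alternative tried. With 1 library left out they ran from 0.058 to 0.22 for Btg1, 0.72 to 0.85 for Btg2, -0.18 to 0.071 for Btg3, -0.15 to -0.082 for Tob1 and -0.035 to 0.22 for Tob2. The number of members past the threshold ran from 0 to 1 higher and was 0 lower. Over all genes, the calls ran from 3 to 749 higher and from 10 to 395 lower with 1 library left out, and those of listed genes other than members from 0 to 22 higher and 0 to 14 lower, beside 9 and 7 with all libraries. Without a filter on low values, 73 genes were higher and 84 lower, and 3 listed genes were lower. Quantile normalization gave 298 higher genes and 11 lower listed genes, and median scaling 363 and 12. With library weights, 850 genes were higher and 850 lower, of the listed genes 25 and 21. The authors' deposited table called 1130 higher and 924 lower. The cause of these differences was not tested.

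With the replicate number as a block, 1180 genes were higher and 1577 lower, of the listed genes 31 and 36, and 1 member was higher. The Btg2 log2 fold change had an SE of 0.0635 with the replicate block and 0.111 without it. Deviations from the group means correlated across genes at 0.437, -0.0158 and 0.563 in the same-numbered pairs 1, 2 and 3. The 3 deviations of a group sum to 0 for each gene, so these correlations alone cannot decide whether the numbers pair the libraries. The labels do not say that they do, and the main fit did not pair them. Not every library correlated best with its own number. Low genes shared 1 ratio in 26.9% to 60% in the 3 same-numbered pairs and in 5.03% to 16.9% in the 12 other pairs.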

Other observations

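The nearest tested gene on each side of the 5 members was looked up by position, after the values of the members had been seen. Among these 10 neighbours, 2 rose in Med23KO and 0 fell (limma adjusted p under 0.05), where 1.49% and 1.42% of all tested genes did. Mybph, the gene of the sarcomeric myosin-binding protein H, lies 114 kb from Btg2 and rose from 1.81 ± 0.748 to 5.11 ± 0.469 FPKM (SD, n = 3 each; log2 fold change 1.16, SE 0.216, limma adjusted p = 0.0378). On the other side of Btg2, Atp2b4, a calcium pump gene, had 4.05 ± 0.878 and 2.73 ± 0.216 FPKM (adjusted p = 0.202). The microRNA host gene Mir99ahg, 559 kb from Btg3, rose from 23.7 ± 3.00 to 47.2 ± 10.2 FPKM (log2 fold change 0.95, SE 0.176, limma adjusted p = 0.0378), while Btg3 itself had a log2 fold change of -0.05. Phf5a, only 5.72 kb from Tob2, had 37.0 ± 2.92 and 29.8 ± 2.79 FPKM (adjusted p = 0.183). Both calls were lost in 5 of the 6 fits that leave out 1 library, all but that without Med23KO replicate 3, with adjusted p-values up to 0.185 for Mybph and 0.169 for Mir99ahg.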
